A study of Rattus norvegicus with 6 samples.

Results

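The muscle miRNAs miR-1-3p, miR-133a-3p, miR-133b-3p, miR-206-3p, miR-208a-3p and miR-499-5p were followed in cultured rat cardiac stem cells (CSCs) as a readout of muscle commitment. They are 6 of the 728 mature rat miRNA probe sets in a value table of 1277 probe sets, and they were chosen by name. A miRNA is a short RNA of about the length printed below that guides repression of mRNAs, and a probe set is the group of array spots for one of them. Both groups were CSCs from hearts of Sprague Dawley rats aged 4 weeks. The exosome group (n = 3 arrays) was grown for 3 days in medium with exosomes, small vesicles that cells release, from bone marrow mesenchymal stem cells (MSCs) at passage 4. The untreated group (n = 3 arrays) is described as CSCs alone, and no precipitate free of vesicles is described for either group. No label tells if a group's arrays stand for separate cultures, and the p-values therefore measure a spread that may be technical. The table names probe sets by miRBase accession alone. The 6 accessions were MIMAT0003125_st for miR-1-3p, MIMAT0000839_st for miR-133a-3p, MIMAT0003126_st for miR-133b-3p, MIMAT0000879_st for miR-206-3p, MIMAT0000880_st for miR-208a-3p and MIMAT0003381_st for miR-499-5p. These names came with the list of accessions and not from the files used here.

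The 6 miRNAs are textbook products of differentiated striated muscle. miR-1 and miR-133a are transcribed together from gene clusters active in heart and skeletal muscle, under the transcription factors Srf and Mef2; miR-1 is known to favour differentiation and miR-133a to restrain smooth muscle genes and to sustain proliferation of myoblasts. miR-206 and miR-133b form a related cluster active mainly in skeletal muscle, where MyoD drives it. miR-208a and miR-499 lie in introns of myosin heavy chain genes, and miR-208a is made together with the myosin of the contracting cell.

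All 6 names were found among the mature rat miRNAs of RefSeq (build GRCr8). The sequences are shown because some of the 6 differ in few bases. Each is written 5′ to 3′ with its seed, bases 2 to 8, in capitals:
miR-1-3p: uGGAAUGUaaagaaguguguau
miR-206-3p: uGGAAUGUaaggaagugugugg
miR-133a-3p: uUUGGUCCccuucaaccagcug
miR-133b-3p: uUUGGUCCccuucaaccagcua
miR-208a-3p: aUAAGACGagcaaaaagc
miR-499-5p: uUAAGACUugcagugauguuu

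The 6 fall on 4 seeds. miR-1-3p and miR-206-3p share GGAAUGU and are equal at 19 of 22 bases (numbered from 1 at the 5′ end), with the differences A11G, A21G and U22G from miR-1-3p to miR-206-3p. miR-133a-3p and miR-133b-3p share UUGGUCC and differ only in their last base (G22A). miR-208a-3p and miR-499-5p have seeds that differ in their last base (G8U), and over the 18 bases of the RefSeq miR-208a-3p they are equal at 10 positions. Among RefSeq rat miRNAs, miR-1b has the seed of miR-1-3p and differs from it by G17A alone, and miR-208b-3p has the seed of miR-208a-3p. Probe sets for members of a pair were separate, and whether they shared signal was not tested. GC content ran from 31.8% for miR-1-3p to 54.5% for miR-133a-3p.

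The genes lie at 4 places in GRCr8. Mir133a1 (chr18:2157872-2157958, minus strand) and Mir1 (chr18:2160327-2160413, minus strand) are 2368 bases apart, both within the span of Mib1, a ubiquitin ligase gene of Notch signalling. Mir206 (chr9:30590697-30590780, plus strand) and Mir133b (chr9:30594582-30594665, plus strand) are 3801 bases apart within the non-coding RNA gene LOC120094648. Mir208a (chr15:32395552-32395634, minus strand) lies within Myh6, the alpha myosin heavy chain gene of heart muscle. Mir499a (chr3:164570612-164570676, plus strand) lies within Myh7b, a further myosin heavy chain gene. At 3 of the 6 genes RefSeq also places a hairpin on the opposite strand: Mir3571 over Mir1, Mir3582 over Mir133a1 and Mir3546 over Mir208a.

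All 6 muscle miRNAs were dim in CSCs, with and without exosomes. Their 36 signals, 6 miRNAs on 6 arrays, ran from 0.15 to 1.76 on the log2 scale, whereas the mature probe sets together reached 14.04. Without miR-206-3p the highest of the signals was 0.92. Over the 6 arrays, 5 of the 6 had a mean below 1, as did 387 of the 728 mature probe sets (53.2%), so a dim muscle miRNA was no exception in this table. By rank among the 728 means, miR-133a-3p stood at the 9.6th percentile, miR-499-5p at the 26.5th, miR-208a-3p at the 28.3rd, miR-133b-3p at the 28.7th, miR-1-3p at the 35.6th and miR-206-3p at the 61.1st. For scale, the 490 hairpin probe sets of the same table had a median mean of 0.56 and the 6 muscle miRNAs one of 0.45. Probe sets differ in how brightly they report the same amount of RNA, so these ranks place signals and do not order the amounts. In RNA from a whole culture, fewer cells of a type and less RNA per cell cannot be told apart.

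**Figure D1:**
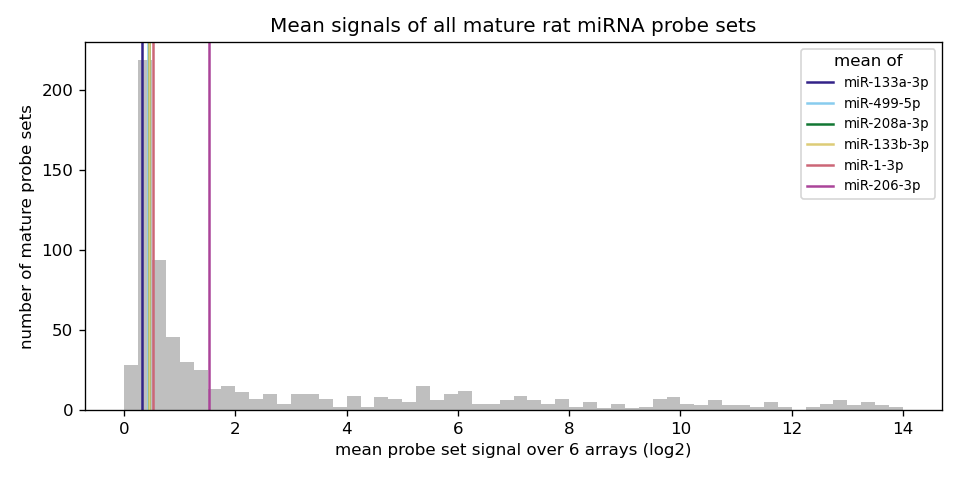
Histogram of the mean log2 signal over 6 arrays (x axis) for the 728 mature rat miRNA probe sets, in bins of 0.25 log2 (y axis, number of probe sets), with a vertical line at the mean of each muscle miRNA. The lines of 5 muscle miRNAs stand together between 0.32 and 0.52 in the dim peak, and that of miR-206-3p stands at 1.53.

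Whether the 6 were called detected is not known here, because detection calls were analysed only for the authors' 22 differential miRNAs, which include 0 of the 6. In the authors' deposited table the lowest signal called detected was 0.82 (miR-201-5p on untreated replicate 3) and the highest called not detected was 1.46 (miR-207 on exosome replicate 3). Between these signals both calls occurred, 3 detected and 4 not detected. Of the 36 muscle miRNA signals, 29 lay under the lowest detected signal. The other 7 were all 6 signals of miR-206-3p and the signal of miR-1-3p on exosome replicate 1. Only 3 signals, all of miR-206-3p, lay above the highest signal called not detected. These limits belong to other probe sets and are not the detection limits of the muscle miRNAs.

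The comparison of the groups asked whether 3 days with MSC exosomes moved any of these miRNAs. For none of the 6 did the groups separate: the 3 exosome and the 3 untreated arrays overlapped for every one, and 0 of 6 passed limma's test at an adjusted p under 0.05 (Benjamini-Hochberg over all 728). The background is low as well, with 0 of 728 (0%) past that threshold. Without adjustment 0 of the 6 had a limma p under 0.05, against 106 of the 728 (14.6%). Over all 728 the arrays of the groups did not overlap for 143 (19.6%), of which 15.9% lay above and 3.71% below the untreated arrays as shares of the 728, against 0 of the 6 on either side. The smallest unadjusted p among the 6 was 0.243, for miR-1-3p.

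Of the first cluster, miR-1-3p had log2 signals of 0.92, 0.57 and 0.41 on exosome replicates 1, 2 and 3 and of 0.57, 0.20 and 0.41 on untreated replicates 1, 2 and 3. Exosome replicate 1 was highest and untreated replicate 2 lowest, and the other 4 signals, from both groups, lay between 0.41 and 0.57. The means were 0.63 ± 0.26 with exosomes and 0.40 ± 0.19 without (SD, n = 3), a difference of 0.24 ± 0.18 log2 (SE; limma adjusted p = 0.621), or 1.18-fold with a 95% interval of 0.865- to 1.60-fold. Without exosome replicate 1, the highest array, the difference was 0.09.

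miR-133a-3p, the partner of miR-1 in this cluster, had 0.30, 0.37 and 0.30 on exosome replicates 1, 2 and 3. On untreated replicates 1, 2 and 3 it had 0.57, 0.23 and 0.15. The untreated arrays thus spread to both sides of the exosome arrays, with untreated replicate 1 highest and untreated replicate 3 lowest of all 6. The means were 0.32 ± 0.04 and 0.32 ± 0.22 (SD, n = 3), and the difference was 0.0058 ± 0.15 log2 (SE; limma adjusted p = 0.996), with a 95% interval of 0.778- to 1.30-fold. The highest array was exosome replicate 1 for miR-1-3p and untreated replicate 1 for miR-133a-3p, which come from neighbouring hairpins. Whether they vary together cannot be told from such dim signals.

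Of the skeletal muscle cluster, miR-206-3p was the brightest of the 6, with 1.38, 1.58 and 1.45 on exosome replicates 1, 2 and 3 and 1.76, 1.55 and 1.45 on untreated replicates 1, 2 and 3. It exceeded each of the other 5 miRNAs on all 6 arrays. Untreated replicate 1 was highest and exosome replicate 1 lowest, and the other 4 arrays lay within 1.45 to 1.58. The means were 1.47 ± 0.10 with exosomes and 1.59 ± 0.16 without (SD, n = 3), a difference of -0.12 ± 0.14 log2 (SE; limma adjusted p = 0.772), or 0.922-fold with a 95% interval of 0.729- to 1.16-fold. Its percentile among mature probe sets varied little between arrays, from 59.5 to 63.2.

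miR-133b-3p, its cluster partner, had 0.48, 0.37 and 0.57 on exosome replicates 1, 2 and 3 and 0.34, 0.55 and 0.42 on untreated replicates 1, 2 and 3. The highest array was from the exosome group and the lowest from the untreated group, with the rest interleaved. The means were 0.47 ± 0.10 and 0.44 ± 0.11 (SD, n = 3), a difference of 0.037 ± 0.13 log2 (SE; limma adjusted p = 0.932), with a 95% interval of 0.826- to 1.27-fold. For miR-133a-3p and miR-133b-3p, which differ in 1 base, untreated replicate 1 was the highest array for the first and the lowest for the second. All their signals lay under 0.82, the lowest called detected among the authors' listed miRNAs. Whether these miRNAs vary together cannot be told from such dim signals.

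Among the miRNAs of myosin introns, miR-208a-3p had 0.45, 0.41 and 0.45 on exosome replicates 1, 2 and 3 and 0.35, 0.45 and 0.59 on untreated replicates 1, 2 and 3. The exosome arrays lay inside the range of the untreated arrays. The means were 0.44 ± 0.03 and 0.46 ± 0.12 (SD, n = 3), and the difference was -0.027 ± 0.12 log2 (SE; limma adjusted p = 0.941), with a 95% interval of 0.799- to 1.20-fold. miR-499-5p had 0.36, 0.51 and 0.36 on exosome replicates 1, 2 and 3 and 0.41, 0.41 and 0.60 on untreated replicates 1, 2 and 3. Its groups overlapped through exosome replicate 2, and its means of 0.41 ± 0.09 and 0.47 ± 0.11 (SD, n = 3) differed by -0.067 ± 0.13 log2 (SE; limma adjusted p = 0.909), with a 95% interval of 0.771- to 1.18-fold. Both miRNAs were highest on untreated replicate 3.

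**Figure D2:**
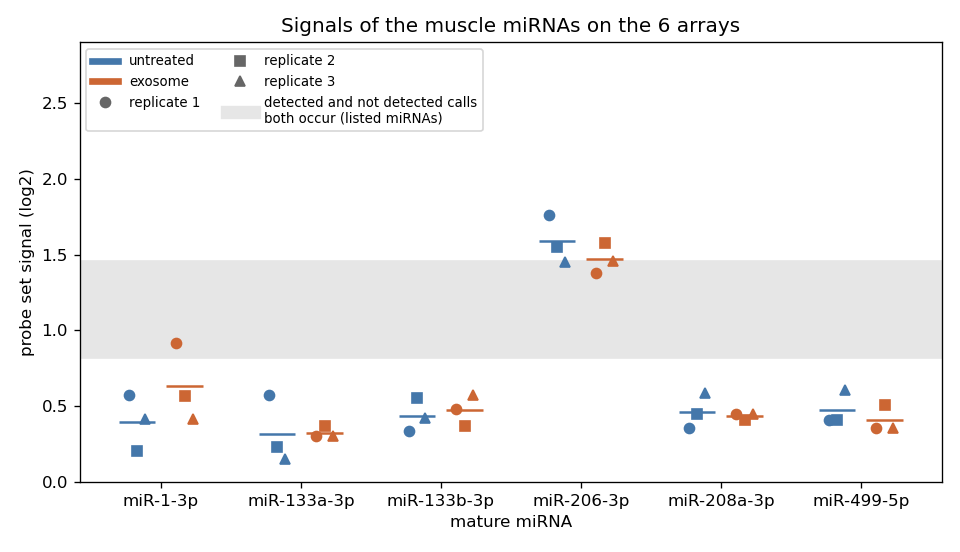
Log2 signal (y axis) of each muscle miRNA (x axis) on the 3 untreated (blue) and 3 exosome (orange) arrays, with symbols for replicate numbers, horizontal lines for group means and a grey band from 0.82 to 1.46 where both detection calls occurred among the authors' listed miRNAs. The groups overlap for all 6 miRNAs, and miR-206-3p alone lies within or above the band on every array.

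In order of their means, miR-206-3p (1.53) was followed by miR-1-3p (0.52), miR-133b-3p (0.46), miR-208a-3p (0.45), miR-499-5p (0.44) and miR-133a-3p (0.32). The first step was the only one wider than the spread: the lowest miR-206-3p signal, 1.38, was above the highest of the other 5, 0.92. The neighbours from miR-1-3p down to miR-499-5p kept their order on 3 of 6 arrays each, and miR-499-5p was above miR-133a-3p on 5 of 6. No probe set can be read as more abundant from this order.

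Of the 6, 3 were above and 3 below the untreated mean on the deposited scale, with a median difference of -0.011 log2. The same median was 0.08 over all 728 mature probe sets, with 469 above, and 0.04 over the 470 with a mean below 2. Over the 171 with a mean of at least 5 it was 0.39. The largest difference of a muscle miRNA was 0.24 log2 in size, and the smallest of the authors' 22 listed miRNAs, which were chosen for their difference, was 0.59. Rescaling moved the signs: 1 of the 6 was above after quantile normalization, 2 after centring arrays on their median, and 0 after centring on the bright miRNAs, which shifts the median of all 728 to -0.29. That last centring moves the difference of every probe set, bright or dim, by the same amount. After it the 6 differences ran from -0.49 for miR-206-3p to -0.14 for miR-1-3p, and limma's smallest adjusted p among them was 0.199. Its unadjusted p was 0.0282 for miR-206-3p and 0.0335 for miR-499-5p, and it was under 0.05 for 163 of the 728. No direction is therefore given for the set.

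**Figure D3:**
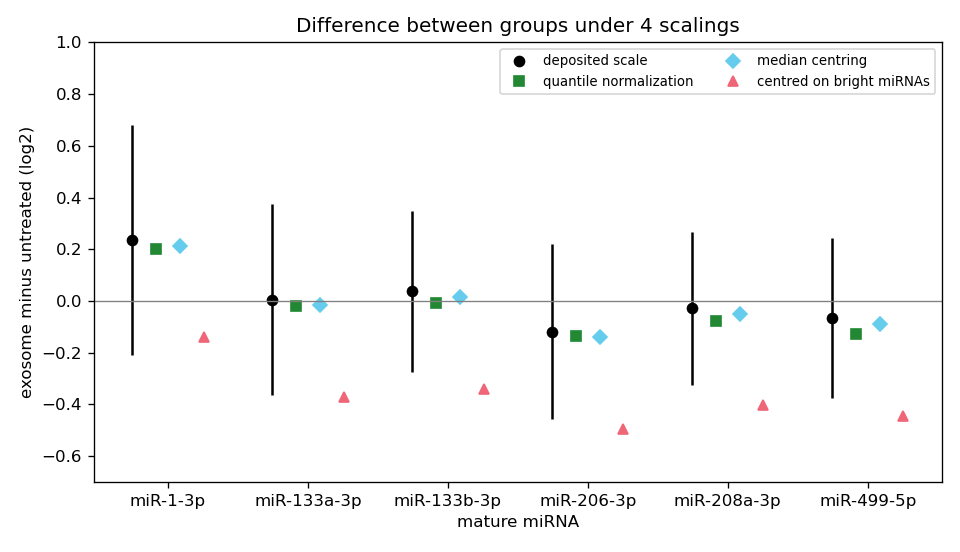
Exosome minus untreated difference in log2 signal (y axis) for each muscle miRNA (x axis) on the deposited scale (black, with limma's 95% interval) and under 3 other scalings (coloured, without intervals). All 6 intervals on the deposited scale include 0, and centring on bright miRNAs puts all 6 points below 0.

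**Figure D4:**
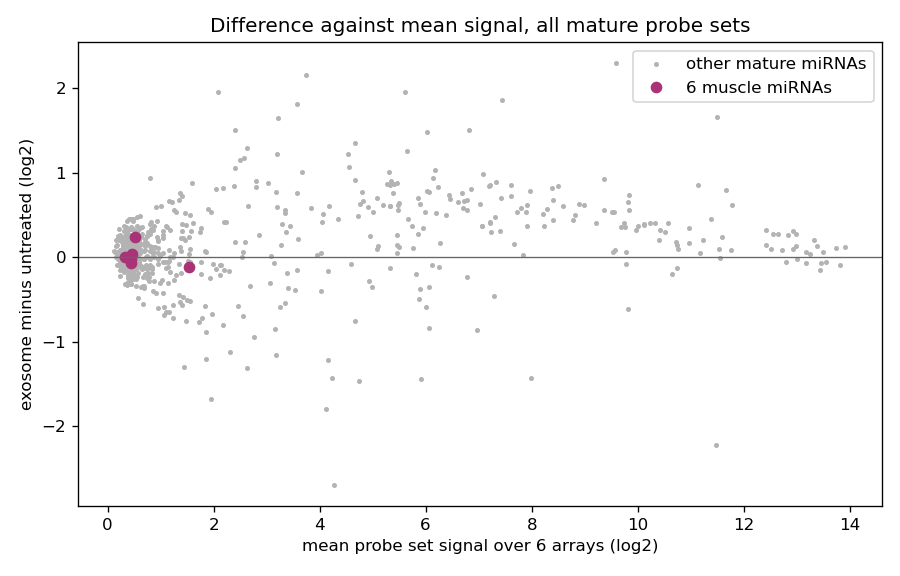
Exosome minus untreated difference in log2 signal (y axis) against the mean log2 signal over 6 arrays (x axis) for the 728 mature probe sets, with the 6 muscle miRNAs in purple. The muscle miRNAs lie at the left between -0.12 and 0.24, among probe sets of like brightness.

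Between arrays of a group, the SD of the muscle miRNAs ran from 0.08 for miR-208a-3p to 0.23 for miR-1-3p, with a median of 0.12. The same median was 0.17 over the 387 mature probe sets with a mean below 1 and 0.19 over the 470 with a mean below 2. Some of the signals were exact repeats. miR-208a-3p had the same deposited signal, 0.4522236, on exosome replicates 1 and 3 and untreated replicate 2. miR-133a-3p had 0.3011541 on exosome replicates 1 and 3, and miR-499-5p had one value on exosome replicates 1 and 3 and another on untreated replicates 1 and 2. In all, 3 of the 6 repeated a value between arrays, as did 76 of the 470 dim mature probe sets (16.2%) and 1 of the 171 with a mean of at least 5 (0.585%). The value 0.5733863, the most frequent among the 4368 mature signals, occurred 42 times, and 3 of these were miR-1-3p and miR-133a-3p on untreated replicate 1 and miR-133b-3p on exosome replicate 3. The intervals above describe signals that include such repeats, and they bound the change of the signal, not of the RNA.

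None of the 6 had a mean of at least 5, so likeness of pattern was sought for the brightest, miR-206-3p, among the 171 mature probe sets above that level. The highest Pearson correlations over the 6 arrays were 0.76 for MIMAT0000778_st and 0.72 for MIMAT0000790_st, both unnamed in the files. These arrays share their normalization, miR-206-3p spanned only 0.39 log2 over them, and the values are given as a description.

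Predicted targets were analysed for the authors' 22 listed miRNAs alone, so sites of the muscle miRNAs themselves were not analysed here. The authors' deposited target table, made with the miRanda program, was searched instead for protein-coding genes that contain or control the muscle miRNA genes. None of the 3 whose spans contain muscle miRNA genes (Mib1, Myh6 and Myh7b) was in it. Of 26 heart and skeletal muscle genes 6 were: Gata4, Mef2a, Mef2c, Srf, Myod1 and Myf5. Among them are transcription factors known to drive the genes of the muscle miRNAs, Srf and Mef2 for the miR-1 clusters and MyoD (Myod1) for miR-206 and miR-133b. Srf was predicted for 4 listed miRNAs, all from the authors' lower group (miR-207, miR-326-5p, miR-328a-5p and miR-702-5p). Mef2a was predicted for 4 from the higher group (miR-18a-5p, miR-181b-5p, miR-181c-5p and miR-501-3p). Myod1 was predicted for the higher miR-503-5p and the lower miR-328a-5p, and Myf5, an early myogenic factor, for the higher miR-330-3p. Gata4 had the most, 6 listed miRNAs, 3 higher and 3 lower, and Mef2c was predicted for the higher miR-362-3p. Of the 18 pairs of a listed miRNA and one of the 6 genes, 8 (44.4%) were with lower miRNAs, against 54.7% of the 6133 pairs of the whole table.

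Sites for these regulators of the muscle miRNA genes are printed 5′ to 3′ as the authors' deposited table gives them, with the stretch aligned to the miRNA in capitals:
Srf, site for miR-326-5p: gaCAAAAGAGCCCTGCCCCt
Myod1, site for miR-503-5p: tctggtTGTTGTTGCTGCTGCTg
Mef2a, site for miR-181c-5p: ccTCACTGGTGGTGAATGTg
In the authors' deposited table these sites have miRanda alignment scores of 170, 153 and 161 and free energies of -30.41, -26.87 and -24.16. The Myod1 site for the lower miR-328a-5p, not printed, has a score of 165 and an energy of -35.93. All these sites are predictions from sequence, and mRNA of Srf, Myod1 and Mef2a was not measured on these arrays. The listed miRNAs did not pass limma's adjusted test either (0 of 728).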

How the data were processed

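miRNA signals of 3 exosome and 3 untreated CSC samples came from Affymetrix miRNA arrays, with 1 ug of total RNA labelled per sample, per the labels' protocols. The deposited signals are on a log2 scale according to the authors' note sheet. Headers of the authors' list of 22 differential miRNAs name RMA signals, and headers of the full set of values name only samples. MAS5 is listed beside Affymetrix Expression Console, with no version, in the submitters' processing notes. For miR-207 and let-7i-3p the full set matches the list's columns labelled RMA. The miR-207 signals listed for the exosome arrays average 0.801, the exosome mean of MIMAT0003115_st in the full set. The let-7i-3p signals listed for the untreated arrays average 1.103, the untreated mean of MIMAT0004707_st. The signals analysed here thus carry the RMA label for these miRNAs, and what MAS5 was used for was not tested. Normalization between arrays reduces a true overall change. The authors' deposited target table gives a miRanda alignment score above 150 and an energy under -20 for each site, per its note sheet.

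Groups were taken from sample titles, with 6 value columns mapped and 0 left unmapped. limma 3.58.1 (lmFit and eBayes, R 4.3.3) was fitted to all 728 mature probe sets on the deposited log2 values, as exosome minus untreated. p-values were adjusted by the Benjamini-Hochberg method and called under 0.05. The code was tested on simulated data. Errors are SD over arrays or limma's moderated SE, and intervals are limma's at 95%. The number of arrays limits the precision. Sequences and positions come from RefSeq (GRCr8). Summaries and plots were made in Python 3.11.15 (numpy 2.4.6, pandas 2.3.3, matplotlib 3.10.9).

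The members and lists were chosen with earlier results of these data known. By the naming rule the text covers the 6 members with every value and the probe sets most like the brightest member. It also covers the muscle genes, and the protein-coding genes that contain member genes, sought in the target table. Opposite arms and hairpins of the members, further muscle miRNAs (miR-208b, miR-486, miR-378a) and lists for smooth muscle, fibroblasts, endothelium, blood, epithelium, liver and neural cells were also planned; 0 of their probe sets could be named from the files or tables used here, so the labelled cell type was not checked against other markers.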

Additional observations from a re-analysis of the deposited data

How the results depend on the processing

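Adjusted p stayed above 0.05 for each of the 6 muscle miRNAs in all 78 differences recomputed under alternatives, the lowest being 0.199 after centring on bright miRNAs. In 24 of the 78 (the replicate block, robust fitting, the intensity trend and testing every probe set) the difference equals that of the deposited scale by construction. Of the other 54, the sign turned in 12. After quantile normalization miR-133a-3p differed by -0.020 and miR-133b-3p by -0.0076 log2, and after median centring miR-133a-3p by -0.017. After centring on bright miRNAs miR-1-3p, miR-133a-3p and miR-133b-3p differed by -0.14, -0.37 and -0.34 log2. Leaving out single arrays, the differences ran from 0.093 to 0.35 for miR-1-3p, from -0.077 to 0.13 for miR-133a-3p, from -0.013 to 0.095 for miR-133b-3p, from -0.18 to -0.031 for miR-206-3p, from -0.083 to 0.034 for miR-208a-3p and from -0.12 to -0.00082 for miR-499-5p. Over all 728 mature miRNAs the count past the adjusted threshold ran from 0 to 23 when single arrays were left out, 23 without exosome replicate 3 and 1 without untreated replicate 1, and 0 of these were among the 6. The count of 106 at an unadjusted p became 38 without exosome replicate 2, 57 without exosome replicate 1, 68 after quantile normalization and 163 after centring on bright miRNAs.

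Deviations from the group mean had r = 0.0352, 0.324 and 0.291 between same-numbered arrays 1, 2 and 3 over 728 probe sets. Between arrays of unlike number r ran from -0.376 to 0.243. Deviations within a group of 3 sum to 0, so these correlations are not independent. They cannot decide whether the numbers pair the arrays. With the replicate number as a block the adjusted p of miR-1-3p was 0.525, its difference of 0.24 log2 being fixed by the balanced design, and 0 of 728 passed. With a floor of 4 on the log2 signals, or with only probe sets of mean at least 2, the 6 could not be fitted, since all their signals lie below both limits. Outliers were not sought in groups of 3.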
